A study of Mus musculus with 27 samples.

Results

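The net change in gene expression of the fetal brain of C57BL/6J mice between gestational days (d) 12 and 17 was measured by RNA-seq over all genes. It was taken from 6 of the 27 libraries of a study of 3 strains and 3 days, as the 3 libraries of d17 over the 3 libraries of d12, so that it spans both the early phase (d12 to d15) and the late phase (d15 to d17). C57BL/6J is the inbred strain that the study calls long-lived. All fetuses were labelled female, came from timed matings of mice about 8 weeks old with the plug counted as day 1, and were snap frozen before the whole brain was dissected, and the labels name no treatment. The C57BL/6J libraries of d15, used here as values between the ends, and those of AKR/J and Cav1-null fetuses (B6.Cg-Cav1tm1Mls/J, a line with a targeted Cav1 allele), both called short-lived by the study, were made in the same way. The libraries hold poly-A RNA, and the values are read counts per gene. The labels do not say whether the 3 fetuses of a group came from separate litters, so that the p-values measure the spread between these libraries. In whole tissue, fewer cells of a type cannot be told apart from less RNA per cell.

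At the start of this interval the mouse brain is mostly a proliferative neuroepithelium, in which radial glia divide along the ventricle and proneural transcription factors push their daughters out of the cell cycle. Signalling centres at the midbrain-hindbrain boundary and along the ventral midline still set up regions at this time. Towards birth the progenitors are depleted, neurons settle in layers, extend axons and build receptors and ion channels, and the first astrocytes and oligodendrocyte precursors appear.

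Of 55416 genes in the table, 19793 had no read in these 6 libraries, and 19762 had enough reads to be tested. Between d12 and d17, 5170 genes (26.2% of those tested) were differentially expressed (DE), with 2865 higher on d17 (14.5%) and 2305 lower on d17 (11.7%). Here and below, a gene is called DE, and said to rise or fall, at a Benjamini-Hochberg adjusted p under 0.05 in edgeR's quasi-likelihood test, and the log2 fold change is d17 over d12. A log2 fold change of at least 1 in size was reached by 2409 of the genes that rose (12.2%) and 1341 of those that fell (6.79%). The median over all genes tested was -0.02. The levels of d17 lay above all those of d12 for 5008 genes (25.3%) and below them for 3806 (19.3%). The count of DE genes was 2214 without d17 replicate 3, and the rising and falling genes were then 1362 and 852, and 1527 and 1501 genes fell without d12 replicates 1 and 3. When each library's trend with GC content and transcript length was removed, 2909 genes rose and 4486 fell, a share of 39.34% rising against 55.42% above, and the median moved to -0.159. The share rising was 63.73% with upper quartile scaling, 60.68% with library sizes alone and 48.42% in 1 model of all 27 libraries, and 49.38% without d17 replicate 1.

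The 6 libraries had 29700746 to 35026178 reads on genes. Pearson correlations of their log2(CPM + 1) values were 0.989 to 0.995 within d12, 0.985 to 0.994 within d17 and 0.963 to 0.982 between the days, where CPM is each gene's reads per 1000000 reads on genes, without TMM scaling. On the first principal component, with 57.5% of the variance of the 9 C57BL/6J libraries, d12 replicate 3 lay at -78 and the other d12 libraries at -45 and -41.7, and on the second, with 24.3%, d17 replicate 2 lay at 54.6 against -22.9 and 17.7. Leaving out both of these libraries gave 3846 DE genes, with 2299 higher and 1547 lower. In d12 replicate 3 the trophoblast gene Tpbpa was 36.5 CPM against at most 0.189 CPM in the other 5 libraries. In d12 replicate 1 the midbrain-hindbrain gene En1 was 0.787 CPM against 26.8 and 24.8 CPM. Neuronal and progenitor markers were high in all 6 libraries (Dcx 974 to 1660 CPM and Sox2 42.9 to 199 CPM), the 4 genes of the Y chromosome checked did not exceed 0.197 CPM, and Xist was 2380 to 5940 CPM.

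The plot of all tested genes shows the fold change against the average level. The 10 largest rises and 10 largest falls are named, among DE genes whose libraries of the 2 days do not overlap and whose average log2 CPM is 3 or more, with gene positions on GRCm39. Cpne7 (ENSMUSG00000034796, chromosome 8, 123843492 to 123861927), a calcium-dependent membrane-binding protein, was at 1.86, 1.37 and 1.67 CPM on d12 and at 26.4, 33.2 and 27.7 CPM on d17 (log2 fold change 4.08, SE 0.21, adjusted p = 0.00044). Mal2 (ENSMUSG00000024479, chromosome 15, 54434576 to 54466243), a membrane protein of vesicle traffic, had 1.32, 0.914 and 0.328 CPM on d12 and 33.3, 30.4 and 34.3 CPM on d17 (5.17, SE 0.46, adjusted p = 0.000755). Both were under 2 CPM in every d12 library and had closely spaced values on d17. Ptgds, the prostaglandin D synthase of meninges and choroid plexus, went from 2.93, 8.08 and 0.917 CPM to 156, 106 and 156 CPM (5.04, SE 0.74, adjusted p = 0.00306). Caln1, a calmodulin-like protein of neurons, went from 6.46, 9.54 and 1.97 CPM to 156, 108 and 158 CPM (4.47, SE 0.57, adjusted p = 0.00181). For both genes d12 replicate 3 was the lowest and d17 replicate 2 the lowest of its day, and the days did not overlap. The adaptor gene Sla (4.09), the carbonic anhydrase relative Car8 (4.15), the guanine deaminase Gda (4.41), and Aqp4, Thy1 and Grm5, described below, complete the rises.

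**Figure D1:**
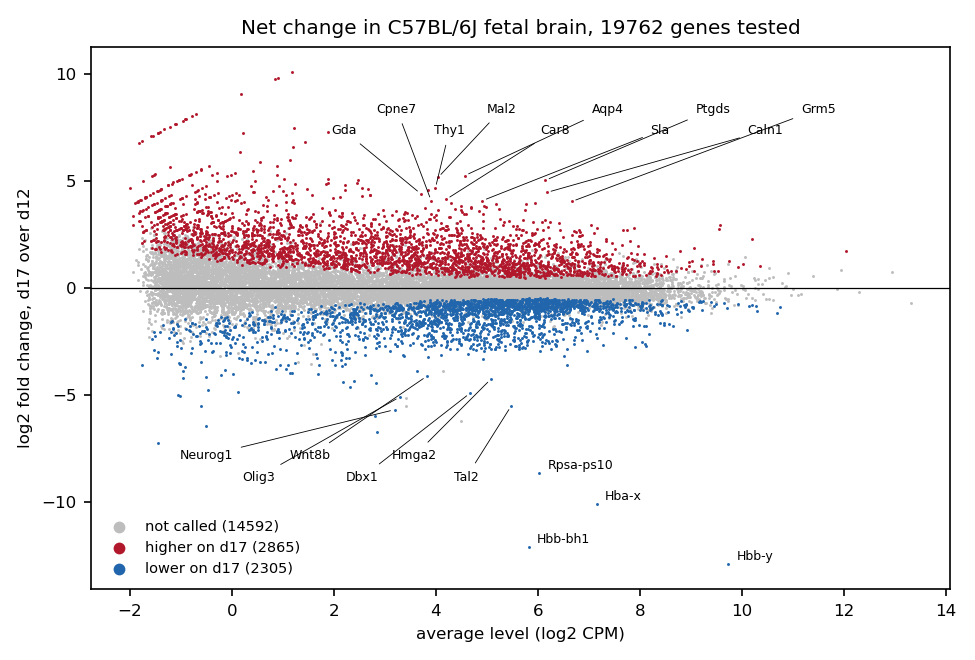
Log2 fold change of C57BL/6J d17 over d12 (vertical axis) against the average log2 CPM (horizontal axis) of the 19762 genes tested, 1 point a gene, with genes called higher, called lower and not called in separate colours. The 3 embryonic globin genes Hbb-y, Hbb-bh1 and Hba-x lie at the bottom, from -12.91 to -10.09, and Aqp4, at 5.26, is the highest of the labelled rises.

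Among the largest falls were 3 globin genes of primitive erythroid cells and 4 transcription factors of neural progenitors. Tal2 (ENSMUSG00000028417, chromosome 4, 53779467 to 53795809), a helix-loop-helix factor of midbrain GABAergic precursors, was at 41, 70.1 and 145 CPM on d12 and at 0.873, 2.63 and 2.47 CPM on d17 (log2 fold change -5.51, SE 0.58, adjusted p = 0.00103). Olig3, a factor of dorsal hindbrain progenitors, was at 14.3, 18.8 and 22.3 CPM on d12 and at 0.809, 0.539 and 0.334 CPM on d17 (-5.09, SE 0.40, adjusted p = 0.000671). Both were lowest on d12 in replicate 1, the library with little En1, and even this library lay far above all of d17. Rpsa-ps10, a processed pseudogene of a ribosomal protein gene, passed the rule with 177, 0.428 and 209 CPM on d12 and 0.194, 0.404 and 0.401 CPM on d17 (-8.64, SE 1.86, adjusted p = 0.0134). Its level in d12 replicate 2 was that of d17, its level in d15 replicate 3 was 102 CPM against 0.126 and 0.159 CPM, and its call was lost without d17 replicate 3 (adjusted p = 0.0653). As its reads can be shared with its parent gene, its values are uncertain.

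Among protein-coding genes with an annotation, those that rose had a median genomic span of 42 kb, against 22.5 kb for those that fell and 25.9 kb for those not called. Their median transcript length was 4.65 kb, against 4.22 and 4.33 kb, and their GC content 48.4%, against 49.5% and 49.8%. Of 2282 long non-coding RNA genes 325 rose (14.2%) and 164 fell (7.19%), beside 14.5% and 11.7% of all genes tested.

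Among the 30 gene lists, the share of falling genes was highest in those of the cell cycle. In the mitosis list, 46 of 46 genes fell, with a median log2 fold change of -2.51, and in the DNA replication list 43 of 47 fell and none rose, with a median of -1.64, against 11.7% falling and a median of -0.02 over all genes. All counts of lists given here and below are to be read against 14.5% rising and 11.7% falling of all genes tested. The summed level of the mitosis genes went from 3850 to 6140 CPM in the d12 libraries to 860 to 948 CPM on d17, and that of the replication genes from 2720 to 3550 CPM to 959 to 1100 CPM. Leaving out any 1 library left 36 to 43 of the replication genes falling.

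The promoters of these genes are shown because the 2 lists differed in the short motifs they held. Promoters were taken from RefSeq (GRCm38.p6) as 250 bases before to 50 bases after each start, and 39 of the 47 replication genes (46 promoters) and 37 of the 46 mitosis genes (39 promoters) had one. Both strands were searched for 4 spellings of the E2F site (TTTCCCGC, TTTGGCGC, TTTCGCGC and TTTGCCGC), for the CHR element TTTGAA, to which the MuvB complex binds, and for CCAAT, the site of NF-Y. An E2F spelling was in 32.6% of the replication promoters and 5.13% of the mitosis promoters, against 2.26% of all 32851 promoters and 3.53% of the 16813 promoters of tested genes. The CHR letters were in 13% of the replication promoters and 71.8% of the mitosis promoters, against 17.9% of all and 12.4% of those of tested genes, and CCAAT in 58.7% and 71.8%, against 37.4% and 37.1%. The replication list was thus near the tested genes in CHR. Over all falling genes these shares were 6.95% for E2F, 16.5% for CHR and 43.9% for CCAAT, and over all rising genes 2.17%, 11.2% and 32.9%. A match is a description of the letters, and binding was not measured.

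For the 2 genes of each list with the highest level among falling members whose promoter holds any of these letters, the 250 bases before the start are given 5′ to 3′ on the strand of the gene, with the matches in capitals. They are Pcna (chr2:132253181-132253430, minus strand), the sliding clamp of the replication fork, with 1 CCAAT match, Rrm1 (chr7:102441445-102441694, plus strand), the large subunit of ribonucleotide reductase, with 2 CCAAT matches, Top2a (chr11:99024190-99024439, minus strand), the topoisomerase that untangles sister chromatids, with 6 CCAAT and 2 CHR matches, and Mki67 (chr7:135716380-135716629, minus strand), the coat protein of mitotic chromosomes, with 3 CCAAT and 2 CHR matches.
Pcna: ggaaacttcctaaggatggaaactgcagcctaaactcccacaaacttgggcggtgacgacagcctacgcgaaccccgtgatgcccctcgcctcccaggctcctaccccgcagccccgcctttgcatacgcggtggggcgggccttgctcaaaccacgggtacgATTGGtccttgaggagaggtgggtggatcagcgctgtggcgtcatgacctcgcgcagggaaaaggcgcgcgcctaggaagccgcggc
Rrm1: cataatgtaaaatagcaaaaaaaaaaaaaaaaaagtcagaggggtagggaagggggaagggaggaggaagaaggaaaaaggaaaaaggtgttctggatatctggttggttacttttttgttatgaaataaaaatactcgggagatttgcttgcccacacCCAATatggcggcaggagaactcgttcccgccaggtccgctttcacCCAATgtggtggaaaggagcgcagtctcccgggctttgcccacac
Top2a: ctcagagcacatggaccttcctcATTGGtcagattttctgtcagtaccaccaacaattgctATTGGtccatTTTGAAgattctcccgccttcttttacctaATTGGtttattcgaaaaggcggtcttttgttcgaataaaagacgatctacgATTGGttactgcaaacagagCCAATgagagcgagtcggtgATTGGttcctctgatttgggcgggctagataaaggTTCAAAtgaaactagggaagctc
Mki67: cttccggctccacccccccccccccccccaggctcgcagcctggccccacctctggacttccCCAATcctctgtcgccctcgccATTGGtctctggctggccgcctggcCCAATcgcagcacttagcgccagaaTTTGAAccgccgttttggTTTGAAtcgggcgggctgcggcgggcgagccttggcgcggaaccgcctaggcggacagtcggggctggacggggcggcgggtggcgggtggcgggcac

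The CHR letters stand 23 and 179 bases before the Top2a start and 98 and 116 bases before the Mki67 start. None of the 4 windows printed holds an E2F spelling searched here. The CCAAT letters recur in the Top2a window from 58 to 227 bases before its start, and the Rrm1 window holds them 45 and 91 bases and the Pcna window 87 bases before the start.

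The levels of these 4 genes fell without overlap between the days. Pcna was at 178, 156 and 265 CPM on d12 and at 55.9, 70.5 and 74.3 CPM on d17 (log2 fold change -1.65, SE 0.22, adjusted p = 0.00224). Rrm1 went from 154, 181 and 271 CPM to 53.5, 41.4 and 63.6 CPM (-1.99, SE 0.28, adjusted p = 0.00253). The d12 library with the most of both was replicate 3. Top2a, at 377, 392 and 648 CPM on d12, was at 86.5, 54.6 and 82.1 CPM on d17 (-2.71, SE 0.31, adjusted p = 0.00133), and Mki67 at 377, 404 and 601 CPM and then at 88.2, 69.4 and 75.8 CPM (-2.62, SE 0.26, adjusted p = 0.00088). Again d12 replicate 3 was highest, and d17 replicate 2 was lowest.

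Within replication, the largest falls were those of Uhrf1, which brings the maintenance methyltransferase to newly copied DNA, of the helicase subunit Mcm3 and of the licensing factor Cdc6. Uhrf1 had 109, 145 and 160 CPM on d12 and 31.1, 12.4 and 20.8 CPM on d17 (log2 fold change -2.72, SE 0.38, adjusted p = 0.00272). Mcm3 had 71.4, 113 and 92.8 CPM and then 22.4, 7.98 and 14.2 CPM (-2.68, SE 0.42, adjusted p = 0.00417). Cdc6 had 19.8, 21.6 and 24.6 CPM and then 5.14, 2.9 and 2.97 CPM (-2.63, SE 0.32, adjusted p = 0.00157). In all 3, the lowest d17 library was replicate 2.

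Within mitosis, the largest falls were those of Ube2c, the ubiquitin-conjugating enzyme of the anaphase-promoting complex, of the kinesin Kif2c and of the cyclin Ccnb1. Ube2c had 98.2, 98.2 and 148 CPM on d12 and 16.9, 14.1 and 15.1 CPM on d17 (log2 fold change -2.96, SE 0.23, adjusted p = 0.000671). Ccnb1 had 111, 96 and 190 CPM and then 18.3, 18.7 and 20.2 CPM (-2.86, SE 0.27, adjusted p = 0.000788). Kif2c went from 52, 50.4 and 72 CPM to 10.2, 5.25 and 9.31 CPM (-2.86, SE 0.32, adjusted p = 0.00115). The d15 libraries of Ccnb1, at 52, 50.2 and 39.8 CPM, lay between the ends.

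Of 50 genes of ribosome biogenesis 13 fell and none rose, beside 11.7% falling and 14.5% rising of all genes tested, with a median log2 fold change of -0.48. This count was 2 to 5 on leaving out a d12 library, 5 on leaving out d17 replicate 2 and 1 on leaving out d17 replicate 3. Dkc1, the pseudouridine synthase of ribosomal and telomerase RNA, was at 62.6, 62 and 102 CPM on d12 and at 32.7, 39.7 and 37.1 CPM on d17 (-1.12, SE 0.21, adjusted p = 0.00807). The nucleolar chaperone Npm1 was at 565, 474 and 907 CPM and then at 253, 403 and 367 CPM (-1.01, SE 0.27, adjusted p = 0.0285), and the helicase Ddx21 fell by 0.93 (SE 0.24, adjusted p = 0.0272). The call of Npm1 was lost without d12 replicates 1 or 3 or d17 replicates 1 or 3 (adjusted p 0.0529 to 0.0932) and with upper quartile scaling, and that of Ddx21 without d12 replicates 2 or 3 or d17 replicates 2 or 3 (0.0555 to 0.103). Ncl, the most abundant member, was at 497, 573 and 785 CPM and then at 386, 375 and 458 CPM and was not called (-0.67, SE 0.23, adjusted p = 0.0617).

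**Figure D2:**
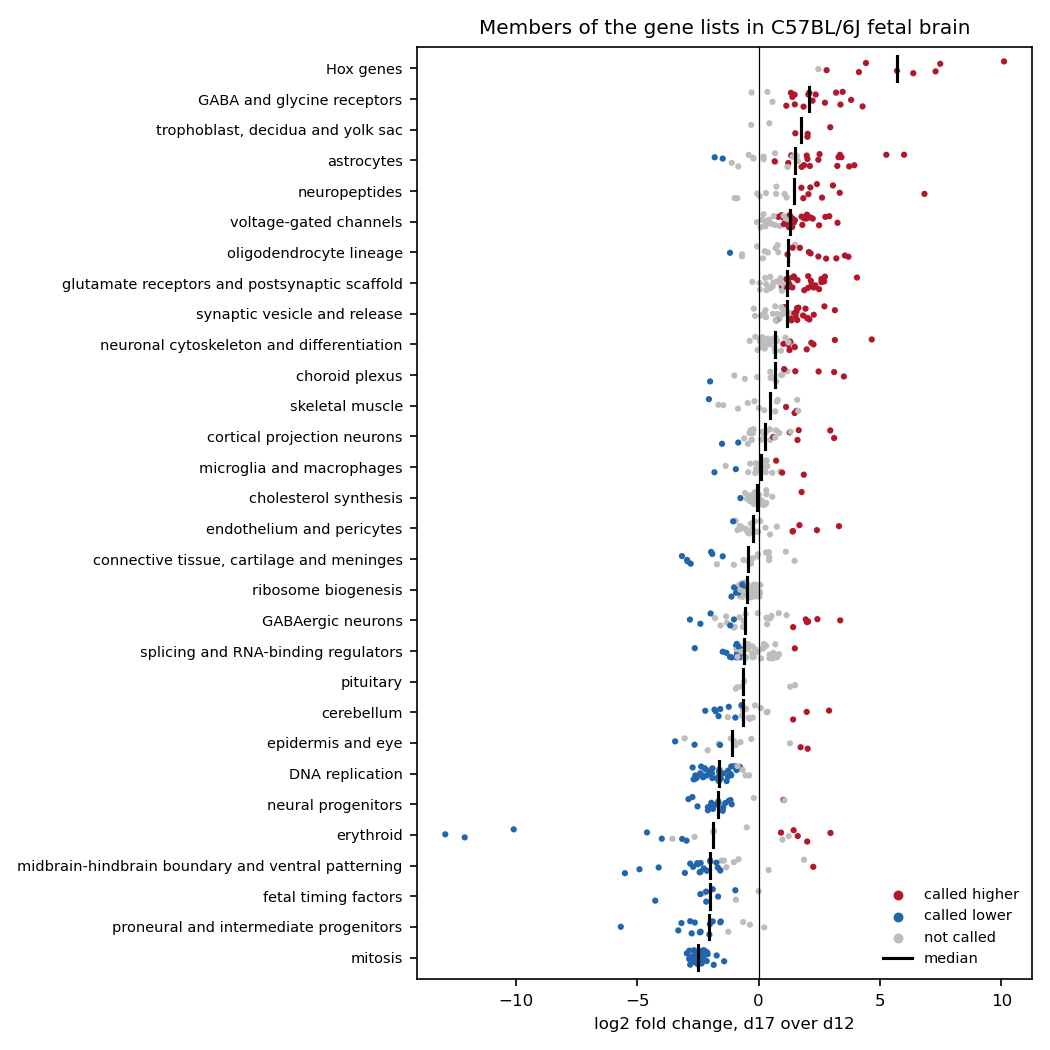
Log2 fold change of C57BL/6J d17 over d12 (horizontal axis) for the tested members of each gene list (rows, ordered by median), 1 point a gene, coloured as called higher, called lower or not called, with the median as a black bar. The mitosis list lies wholly to the left of 0, with a median of -2.51, and the GABA and glycine receptors have a median of 2.07.

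Genes of neural progenitors fell with the cell cycle. In the progenitor list 19 of 23 genes fell and 1 rose (median log2 fold change -1.66), and in the list of proneural and intermediate progenitor genes 13 of 17 fell and none rose (median -2.03). Nes, the intermediate filament of neuroepithelial cells, was at 325, 523 and 464 CPM on d12 and at 128, 39.4 and 65.7 CPM on d17 (-2.52, SE 0.48, adjusted p = 0.0084). Gli3, the repressor arm of Hedgehog signalling, had 97.8, 128 and 119 CPM and then 24.2, 14.4 and 15.5 CPM (-2.73, SE 0.29, adjusted p = 0.00107). Sox3, a factor that keeps progenitors undifferentiated, had 54.7, 99.2 and 56 CPM and then 16.9, 3.33 and 8.58 CPM (-2.89, SE 0.60, adjusted p = 0.0116). Its call was lost without d17 replicate 3 (adjusted p = 0.0614). The member that rose was Fabp7, the brain lipid-binding protein of radial glia and young astrocytes, at 423, 315 and 400 CPM on d12, 263, 304 and 324 CPM on d15 and 457, 1240 and 786 CPM on d17 (1.02, SE 0.31, adjusted p = 0.0442). Its call was lost on leaving out any 1 library but d17 replicate 1 (adjusted p 0.09 to 0.12), and with the GC and length trend removed its change was 0.60.

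Proneural factors were among the steepest falls of all. Neurog1 (ENSMUSG00000048904, chromosome 13, 56398291 to 56399976) was at 8.69, 18.7 and 24.7 CPM on d12 and at 0.194, 0.471 and 0.401 CPM on d17 (log2 fold change -5.68, SE 0.50, adjusted p = 0.000755). Its relative Neurog2, which drives cortical neurogenesis, was at 169, 183 and 128 CPM and then at 21.7, 13 and 20.5 CPM (-3.18, SE 0.30, adjusted p = 0.000805). Nhlh1, a factor of newborn neurons, was at 37.7, 61.1 and 62.5 CPM and then at 6.11, 5.49 and 5.47 CPM (-3.31, SE 0.26, adjusted p = 0.000671). The late phase held most of the change of Neurog2, whose d15 libraries had 106, 110 and 94.3 CPM (early phase -0.59, late phase -2.61, in fits that share the d15 libraries). The RNA-binding protein Elavl2, the most abundant member of that list, was at 225, 212 and 220 CPM and then at 207, 318 and 292 CPM (0.23, SE 0.18, adjusted p = 0.384).

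The list of fetal timing factors holds genes of early development, most of them RNA-binding or chromatin proteins and several kept low later by the let-7 microRNAs, and the surface receptor gene Prtg. Of 10 genes 7 fell and none rose (median log2 fold change -2.02), and 4 fell without d17 replicate 3. Hmga2 (ENSMUSG00000056758, chromosome 10, 120197173 to 120313095), a chromatin protein of young stem cells, went from 46.2, 40.4 and 102 CPM to 2.36, 4.31 and 3.71 CPM (-4.26, SE 0.40, adjusted p = 0.000788). The mRNA-binding protein Igf2bp1 went from 135, 129 and 177 CPM to 28.6, 32.1 and 27.1 CPM (-2.40, SE 0.18, adjusted p = 0.000671). Both had their highest d12 value in replicate 3. Trim71 had 2.08, 2.23 and 8.19 CPM and then 1.23, 0.471 and 1.14 CPM (-2.16, SE 0.64, adjusted p = 0.0406), and its call was lost without d12 replicate 3 (-1.28, adjusted p = 0.115) or d17 replicates 2 or 3 (adjusted p = 0.0984 and 0.115). Lin28b, which blocks the maturation of let-7, stood apart from the list, with 41.4, 29 and 51 CPM on d12 and 27.1, 62.9 and 40 CPM on d17, overlapping values and no call (0.00, SE 0.28, adjusted p = 0.992).

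**Figure D3:**
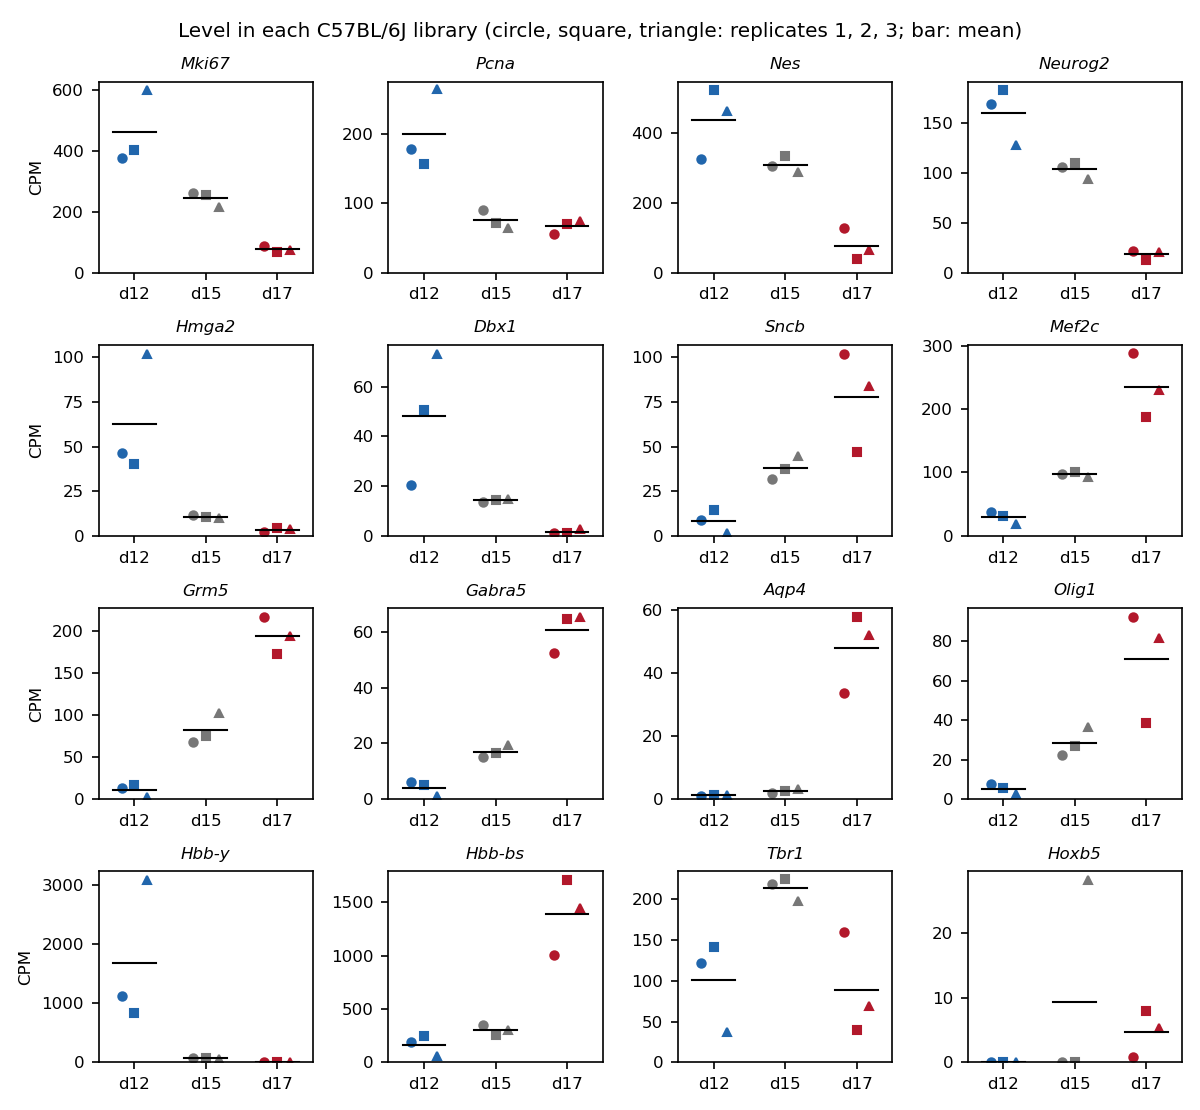
Level in CPM (vertical axes, from 0) of 16 genes named in the text in each of the 9 C57BL/6J libraries by day, with a symbol for each replicate number and the mean of each day as a bar. The d12 and d17 points of Neurog2, Hmga2 and Aqp4 do not overlap, Tbr1 is highest on d15, and the d15 point of Hoxb5 in replicate 3, at 28.2 CPM, lies above all others.

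Most genes of the list of midbrain-hindbrain boundary and ventral patterning fell as well. The list also holds genes of other regions, such as Wnt8b and Otx2. Of 27 genes 18 fell and 1 rose, with a median log2 fold change of -2.0. Dbx1, which marks a progenitor domain of ventral interneurons, was at 20.5, 50.5 and 73.2 CPM on d12 and at 1.29, 1.11 and 2.6 CPM on d17 (-4.91, SE 0.55, adjusted p = 0.00121). Wnt8b, a Wnt ligand of the cortical hem, was at 19.6, 23.7 and 34.9 CPM and then at 1.97, 1.52 and 1.17 CPM (-4.12, SE 0.34, adjusted p = 0.000732). Otx2, which specifies forebrain and midbrain, was at 85.7, 118 and 196 CPM and then at 27.5, 46.9 and 31.6 CPM (-2.0, SE 0.31, adjusted p = 0.00402). For all 3 the lowest d12 library was replicate 1. Nkx2-9, a floor plate gene, had 109 reads in the d12 libraries and 2 in those of d17, which is a 50.7-fold lower level (95% counting interval 14 to 419). En2, at 3.24, 83.5 and 109 CPM on d12 and 26.6, 17.2 and 26.6 CPM on d17, was not called (-1.53, SE 0.92, adjusted p = 0.254), and d12 replicate 1 alone lay below d17.

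Hox genes, which mark the hindbrain behind its front segments and the spinal cord, did not exceed 1.98 CPM in any d12 library. Of 22 genes 9 had enough reads to be tested, and the 13 others did not exceed 2.69 CPM. The 9 passed the filter mainly through the d17 libraries, so that their number called higher, 8, and their median log2 fold change, 5.70, are given as a description only. Hoxb5 had 0 reads on d12 and 423 on d17, at 0.873, 8.01 and 5.27 CPM, which is at least 151-fold higher with 3 reads over the group as the limit of a count of 0. Hoxc4 had 2 reads and 428 reads, a 230-fold higher level (95% counting interval 63.6 to 1900). These intervals cover counting error only. The summed level of the 22 genes was 5.48, 0.457 and 2.98 CPM on d12, 1.63, 0.741 and 231 CPM on d15 and 11.3, 66.4 and 35.8 CPM on d17, so that 1 library of d15 exceeded every library of d17. With the 9 C57BL/6J libraries in 1 model 1 Hox gene was called, and with all 27 libraries 2. How much of the caudal hindbrain or spinal cord each dissected brain held was not tested, and of the Hox genes that passed the same filter in the other strains 9 of 13 were called higher and none lower in AKR/J (median log2 fold change 4.20) and none of 5 in Cav1-null fetuses (median -0.81).

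The lists of neuronal structure, receptors, release, channels and peptides held rising genes and none that fell. In the list of neuronal cytoskeleton and differentiation 11 of 35 genes rose and none fell, beside 14.5% and 11.7% of all genes tested (median log2 fold change 0.69), and 7 rose without d17 replicate 3. Thy1 (ENSMUSG00000032011, chromosome 9, 43954332 to 43959880), a surface glycoprotein of mature neurons, was at 1.07, 1.4 and 1.02 CPM on d12 and at 37.7, 20.2 and 34.3 CPM on d17 (4.66, SE 0.37, adjusted p = 0.000671). The granin Scg2 went from 24.7, 31.3 and 10.2 CPM to 115, 85 and 135 CPM (2.26, SE 0.42, adjusted p = 0.00794). The pan-neuronal genes of the list were high on both days. The tubulin Tubb2b had 1720, 2110 and 1380 CPM on d12 and 2240, 1320 and 2140 CPM on d17 (0.07, SE 0.32, adjusted p = 0.887), and the tubulin Tubb3 had 1250, 1580 and 907 CPM and then 1770, 625 and 1350 CPM (-0.04, SE 0.43, adjusted p = 0.952). In both, the d17 library with the least was replicate 2, and the days overlapped.

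Of these lists, that of inhibitory receptors had the highest median. In the list of GABA and glycine receptors 16 of 20 genes rose and none fell, with a median log2 fold change of 2.07. Gabra5, an extrasynaptic GABA-A subunit, was at 6.08, 4.91 and 1.18 CPM on d12 and at 52.6, 64.6 and 65.4 CPM on d17 (3.81, SE 0.53, adjusted p = 0.00256). Glra3, a glycine receptor subunit, went from 0.63, 0.914 and 0.0655 CPM to 6.99, 16.5 and 11.3 CPM (4.28, SE 0.69, adjusted p = 0.00456). Gabrg1 went from 5.92, 3.25 and 2.56 CPM to 27.1, 65.8 and 45.8 CPM (3.46, SE 0.40, adjusted p = 0.00132). All 3 were lowest on d12 in replicate 3, and the days did not overlap. The metabotropic receptor gene Gabbr1, the most abundant, was at 344, 358 and 236 CPM and then at 476, 348 and 434 CPM (0.36, SE 0.26, adjusted p = 0.345).

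Of 43 genes of glutamate receptors and the postsynaptic scaffold, 26 rose and none fell (median log2 fold change 1.18). Grm5 (ENSMUSG00000049583, chromosome 7, 87233376 to 87784594), a metabotropic receptor, was at 13.6, 17.4 and 2.29 CPM on d12 and at 217, 173 and 194 CPM on d17 (4.05, SE 0.67, adjusted p = 0.00491). Grm7, a presynaptic metabotropic receptor, went from 5.54, 6.02 and 2.26 CPM to 39, 26.7 and 30.9 CPM (2.73, SE 0.41, adjusted p = 0.00333). Camk2b, a subunit of the calcium-dependent kinase of the spine, went from 65, 74.2 and 17.1 CPM to 435, 284 and 346 CPM (2.70, SE 0.54, adjusted p = 0.00992). In each of these, d12 replicate 3 was far below the other d12 libraries. The AMPA subunit Gria2, the most abundant, was at 514, 432 and 243 CPM and then at 705, 1420 and 945 CPM (1.26, SE 0.34, adjusted p = 0.0294), and its call was lost without d12 replicates 2 or 3 or d17 replicates 2 or 3 (adjusted p 0.0544 to 0.0859). With the trend with GC content and length removed the change of Gria2 was 0.57 (adjusted p = 0.116).

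Of 37 genes of the synaptic vesicle and its release, 19 rose and none fell (median log2 fold change 1.16), and 12 rose without d12 replicate 1 and 8 without d17 replicate 3. Sncb, which encodes a protein of the presynaptic terminal, was at 8.88, 14.6 and 1.61 CPM on d12 and at 102, 47.2 and 83.9 CPM on d17 (3.14, SE 0.72, adjusted p = 0.0166), and the vesicle protein Sv2c at 9.79, 14.6 and 3.87 CPM and then at 66.7, 30.3 and 44.8 CPM (2.27, SE 0.52, adjusted p = 0.0173). The values of both spread widely within d12, with the lowest in replicate 3, and did not overlap between the days. The calls of Sncb and Sv2c were lost without d12 replicate 1 (adjusted p = 0.0504 and 0.0512) and without d17 replicate 3 (0.0586 and 0.0567). Syt11, the most abundant, was at 290, 338 and 241 CPM and then at 340, 179 and 268 CPM (-0.20, SE 0.31, adjusted p = 0.673).

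Voltage-gated channels set the firing of neurons, and 28 of 43 rose and none fell (median log2 fold change 1.28). The M-current subunit Kcnq5 was at 3.21, 3.23 and 2.75 CPM on d12 and at 28.5, 19.4 and 24 CPM on d17 (2.91, SE 0.27, adjusted p = 0.000767). Its d17 libraries lay far above those of d12.

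Of 23 neuropeptide genes 18 were tested, some of them, such as Avp, only through their d17 reads, and 9 rose, with a median log2 fold change of 1.46. This count and median are therefore given as a description only. Avp, the vasopressin gene of the hypothalamus, was at 0, 0.114 and 0 CPM on d12 and at 7.6, 3.03 and 5.11 CPM on d17 (6.83, SE 0.88, adjusted p = 0.00191). The fitted change of Avp depends on its few d12 reads and was 10.35 without d12 replicate 2, so that it and its adjusted p are a description only. Nts, neurotensin, went from 5.29, 3.45 and 1.38 CPM to 19.2, 52.3 and 39.6 CPM (3.34, SE 0.52, adjusted p = 0.00393), and Gal, galanin, from 0.441, 0.171 and 0.262 CPM to 2.59, 2.15 and 2.94 CPM (3.06, SE 0.43, adjusted p = 0.00264). Sst, somatostatin, the most abundant, was at 41.9, 30.8 and 13.6 CPM and then at 78.3, 55.8 and 66.7 CPM (1.15, SE 0.39, adjusted p = 0.0656), and was called without d12 replicate 1 (1.49, adjusted p = 0.0481).

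Of 26 genes of cortical projection neurons 6 rose and 2 fell, beside 14.5% and 11.7% of all genes tested (median log2 fold change 0.26), and none fell on leaving out d12 replicate 2 or d17 replicate 2 or 3. Mef2c, an activity-dependent factor, went from 37.9, 30.7 and 19.1 CPM on d12 to 288, 187 and 230 CPM on d17 (2.95, SE 0.34, adjusted p = 0.00129). Bhlhe22 went from 40.9, 51.6 and 18.8 CPM to 162, 76.4 and 126 CPM (1.65, SE 0.45, adjusted p = 0.0297), a call lost without d12 replicates 1 or 3 or d17 replicates 1 or 3 (adjusted p 0.0588 to 0.0919). Pou3f3, the most abundant, was at 386, 462 and 334 CPM and then at 368, 153 and 282 CPM (-0.60, SE 0.36, adjusted p = 0.251).

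In the GABAergic list 6 of 28 genes rose and 5 fell, beside 14.5% and 11.7% of all genes tested (median log2 fold change -0.58, or 0.022 without d12 replicate 1). Drd1, the dopamine receptor of striatal neurons, was at 0.567, 1.03 and 0.655 CPM on d12 and at 9.7, 6.67 and 8.01 CPM on d17 (3.36, SE 0.37, adjusted p = 0.00111). Ppp1r1b, the DARPP-32 gene of the same neurons, was at 3.81, 3.83 and 0.753 CPM and then at 22.4, 6.43 and 17.8 CPM (2.42, SE 0.69, adjusted p = 0.0356). Gsx2, which patterns the progenitors of the ganglionic eminence, was at 11.9, 7.28 and 4.98 CPM and then at 1.49, 0.707 and 1.34 CPM (-2.83, SE 0.46, adjusted p = 0.00451). The receptor gene of striatal neurons thus rose and the progenitor gene fell. Dlx1 was highest in d12 replicate 1, at 343, 145 and 79.9 CPM on d12 and 134, 86.8 and 122 CPM on d17 (-0.79, SE 0.49, adjusted p = 0.273). Without d17 replicate 3 the list had 1 rising and 2 falling genes, 3 fell without d12 replicate 1 or d17 replicate 2, and 9 fell without d17 replicate 1. The call of Ppp1r1b was lost without d12 replicates 1 or 3 or d17 replicates 1 or 3 (adjusted p 0.0544 to 0.107).

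Many glial genes rose. Of 34 astrocyte genes 18 rose and 2 fell (median log2 fold change 1.51). Aqp4, the water channel of astrocyte end feet, was at 0.945, 1.26 and 1.31 CPM on d12, at 2.04, 2.49 and 3.07 CPM on d15 and at 33.7, 57.8 and 52.2 CPM on d17 (5.26, SE 0.26, adjusted p = 0.00044). Agt, angiotensinogen, was at 0.063, 0.114 and 0 CPM, then at 0.252, 0.106 and 0.215 CPM and then at 5.34, 2.69 and 4.81 CPM (5.99, SE 0.70, adjusted p = 0.00135). Agt passed the filter only through its d17 libraries, so that its fitted change and adjusted p are a description only. Aqp4 and Agt had little more on d15 than on d12, and the fold of Aqp4 over the late phase was 4.09 on the log2 scale against 1.16 over the early phase. The GABA transporter gene Slc6a11 was at 7.46, 9.79 and 1.97 CPM on d12, at 34.9, 35.5 and 64.2 CPM on d15 and at 153, 52.3 and 102 CPM on d17 (3.94, SE 0.67, adjusted p = 0.00538), with overlap between d15 and d17. Ptprz1, a phosphatase shared with radial glia and the most abundant, was at 352, 325 and 228 CPM and then at 610, 451 and 444 CPM (0.67, SE 0.27, adjusted p = 0.106).

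In the oligodendrocyte lineage 10 of 21 tested genes rose and 1 fell (median log2 fold change 1.19). Olig1, a factor of oligodendrocyte precursors, was at 7.62, 5.68 and 2.42 CPM on d12 and at 92.2, 38.6 and 81.6 CPM on d17 (3.70, SE 0.52, adjusted p = 0.00272). Gpr17, a receptor of committed precursors, was at 1.07, 1.4 and 2.36 CPM and then at 24.1, 13.6 and 20.7 CPM (3.55, SE 0.39, adjusted p = 0.00116), and Lhfpl3 at 4.41, 3.17 and 1.57 CPM and then at 23.5, 33.9 and 32.2 CPM (3.20, SE 0.37, adjusted p = 0.00136). The 3 were higher in every d17 library. Mbp, a gene of mature myelin, was at 26.3, 34.2 and 25.2 CPM and then at 35.7, 31 and 35.3 CPM (0.18, SE 0.21, adjusted p = 0.552). Pdgfra, the growth factor receptor of precursors that meningeal cells also express, was at 22, 25 and 54.9 CPM and then at 71.8, 45.7 and 52.5 CPM, was not called (0.70, SE 0.37, adjusted p = 0.197) and was called without d12 replicate 3 (1.17, adjusted p = 0.0347), the library with 1700 CPM of connective tissue genes against 688 and 1220 CPM.

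Of 23 tested cerebellar genes 3 rose and 8 fell, beside 14.5% and 11.7% of all genes (median log2 fold change -0.64), with 1 rising and 5 falling without d17 replicate 3. Pcp4, a calmodulin-binding protein of Purkinje and other neurons, rose from 1.32, 1.26 and 0.459 CPM to 6.99, 9.63 and 7.81 CPM (2.90, SE 0.41, adjusted p = 0.00276). Barhl2, a factor of diencephalic and hindbrain neurons, fell from 35.1, 51.1 and 46.5 CPM to 10.9, 8.52 and 10.9 CPM (-2.20, SE 0.24, adjusted p = 0.00107). The most abundant member, Zic1, was at 334, 375 and 298 CPM and then at 236, 184 and 233 CPM (-0.69, SE 0.22, adjusted p = 0.0529), and was called without d17 replicate 1 (-0.83, adjusted p = 0.0377).

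Pairs of genes in which a neuron or a later stage uses another paralog were compared by their levels per kb of exon. The chromatin remodeller subunit Actl6a, used by progenitors, fell from 71.2, 69.6 and 94.8 CPM to 23.4, 21.2 and 23.3 CPM (log2 fold change -1.86, SE 0.19, adjusted p = 0.00095). Its neuronal paralog Actl6b was not called, at 110, 103 and 59.9 CPM and then 142, 121 and 133 CPM (0.47, SE 0.27, adjusted p = 0.234). The ratio of Actl6b to Actl6a per kb was 0.5 to 1.22 on d12 and 4.5 to 4.8 on d17. The ratios of the days did not overlap, with the fall of the early member as the called change.

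The same form held for the Ptbp and Ss18 pairs. The splicing repressor Ptbp1 fell from 137, 166 and 172 CPM to 69.5, 49.7 and 58 CPM (log2 fold change -1.48, SE 0.22, adjusted p = 0.00354), and its neuronal relative Ptbp2 was at 449, 390 and 515 CPM and then at 270, 413 and 375 CPM (-0.44, SE 0.19, adjusted p = 0.134), so that the ratio per kb of Ptbp2 to Ptbp1 went from 0.914 to 1.27 on d12 to 1.51 to 3.23 on d17. For the remodeller subunits Ss18 (-0.92, adjusted p = 0.00684) and Ss18l1 (0.40, adjusted p = 0.259) the ratio went from 1.51 to 3 on d12 to 4.46 to 7.16 on d17. Only among the pairs of Ezh and globin genes were both members called in opposite directions. The Polycomb methyltransferase Ezh2 fell from 265, 225 and 302 CPM to 91.6, 102 and 101 CPM (-1.50, SE 0.17, adjusted p = 0.00128), and Ezh1, its form in cells that have left the cycle, rose from 31.3, 27.6 and 28.5 CPM to 52.9, 58.2 and 51.1 CPM (0.82, SE 0.15, adjusted p = 0.00732). Per kb, Ezh1 was 0.0744 to 0.0968 of Ezh2 on d12 and 0.4 to 0.456 on d17, so that Ezh2 remained the higher of the pair.

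For the chloride transporters, which set whether GABA excites or inhibits, the later member carried the change. Slc12a5, which exports chloride from neurons, rose from 80.8, 96.7 and 47.1 CPM to 306, 176 and 171 CPM (log2 fold change 1.48, SE 0.38, adjusted p = 0.0243). Its call was lost without d12 replicate 1 (adjusted p = 0.0652), d12 replicate 3 (0.0626) or d17 replicate 3 (0.054). The importer Slc12a2 was at 127, 90.5 and 112 CPM and then at 95.5, 102 and 84.4 CPM (-0.29, SE 0.18, adjusted p = 0.272), and the ratio of Slc12a5 to Slc12a2 per kb went from 0.643 to 1.63 on d12 to 2.63 to 4.89 on d17. The cyclins Ccnd1 (-2.83, SE 0.36, adjusted p = 0.00179) and Ccnd2 (-1.76, SE 0.31, adjusted p = 0.00585) both fell. The methyltransferase Dnmt3b fell (-0.96, SE 0.24, adjusted p = 0.0225), a call lost without d12 replicates 1 or 2 or d17 replicate 3 (adjusted p 0.0542 to 0.0897), and also with upper quartile scaling, with library sizes alone and with the GC and length trend removed. Dnmt3a was at 237, 288 and 223 CPM and then at 319, 180 and 232 CPM with no call (-0.09, SE 0.29, adjusted p = 0.848). Of Phf10, Dpf1, Dpf3, Tet1 and Tet3 none was called, and Tet3 was called without d17 replicate 1 (-1.05, adjusted p = 0.0208). The ratios per kb overlapped between the days for Phf10 with Dpf1 and with Dpf3, and for Dnmt3b with Dnmt3a. The ratio of Tet3 to Tet1 went the other way, from 2.64 to 3.87 on d12 to 1.15 to 2.3 on d17.

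**Figure D4:**
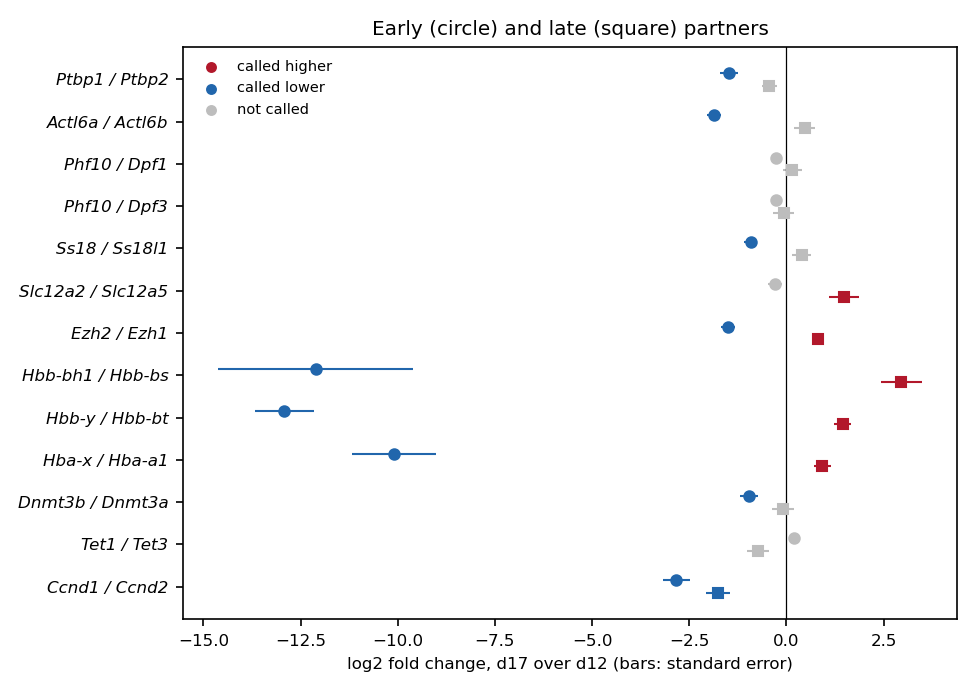
Log2 fold change of C57BL/6J d17 over d12 (horizontal axis) for the early member (circle) and the late member (square) of each pair, with bars of 1 standard error and colours for called higher, called lower and not called. The Ezh and globin pairs have a blue circle left of 0 and a red square right of 0, and the Actl6 pair has its early member at -1.86 and its late member, not called, at 0.47.

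The globin genes of the blood in the tissue went opposite ways. Embryonic globin genes are made by the primitive erythroid cells of the yolk sac and adult ones by the definitive cells of the fetal liver. Hbb-y (ENSMUSG00000052187, chromosome 7, 103500956 to 103502423) was at 1120, 830 and 3080 CPM on d12, 79.6, 78.6 and 60.1 CPM on d15 and 0.259, 0.202 and 0.2 CPM on d17 (log2 fold change -12.91, SE 0.75, adjusted p = 0.00044). Hba-x had 87.8, 110 and 652 CPM and then 0.129, 0.404 and 0.267 CPM (-10.09, SE 1.07, adjusted p = 0.00107). Hbb-bh1 had 10429 reads in the d12 libraries, at 8.09, 4.17 and 328 CPM, and 2 reads on d17, a 4850-fold lower level (95% counting interval 1340 to 40100). The fitted change of Hbb-bh1 was -12.11 (adjusted p = 0.0116) with all libraries and -7.99 without d12 replicate 3 (adjusted p = 0.00167), and its call was lost without d17 replicates 2 or 3 (adjusted p = 0.061 and 0.0586). All 3 were highest in d12 replicate 3.

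The adult globins rose over the same days. Hbb-bs was at 196, 246 and 55.5 CPM on d12 and at 1010, 1710 and 1450 CPM on d17 (log2 fold change 2.96, SE 0.53, adjusted p = 0.00665). Hbb-bt was at 114, 118 and 110 CPM and then at 233, 422 and 340 CPM (1.44, SE 0.21, adjusted p = 0.00301), and Hba-a1 at 235, 355 and 315 CPM and then at 588, 605 and 607 CPM (0.92, SE 0.22, adjusted p = 0.0195). The call of Hba-a1 was lost without d12 replicates 1 or 3 or d17 replicate 3 (adjusted p 0.0587 to 0.0869) and in 1 model of all 27 libraries (adjusted p = 0.126), and reads of Hba-a1 and of the Hbb-b genes can be shared with near-identical copies. Summed over genes, the embryonic globins were 1220, 944 and 4060 CPM on d12 and 0.388, 0.673 and 0.467 CPM on d17, and the adult ones 695, 805 and 637 CPM and then 2260, 3140 and 2810 CPM. In the erythroid list as a whole 5 of 19 tested genes rose and 7 fell, beside the 14.5% and 11.7% of all genes (median log2 fold change -1.87, or 0.307 with at least 10 reads in every library), and 3 fell without d17 replicate 2 or without d17 replicate 3. Leaving the erythroid list out before scaling gave 5162 DE genes.

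Of 28 endothelial and pericyte genes 5 rose and 1 fell, beside 14.5% and 11.7% of all genes tested (median log2 fold change -0.25, or 0.047 without d12 replicate 2 and 0.027 without d17 replicate 2), with 3 rising without d17 replicate 3 and 7 falling without d17 replicate 1. Slco1c1, the thyroid hormone and organic anion transporter of the blood-brain barrier, rose from 9.04, 7.79 and 4.45 CPM to 38.3, 38.2 and 42 CPM (2.40, SE 0.29, adjusted p = 0.00148). Ly6c1, a surface gene of brain capillaries, rose from 0.535, 0.228 and 0.36 CPM to 3.23, 3.47 and 5.04 CPM (3.31, SE 0.40, adjusted p = 0.00154). The pericyte gene Rgs5 went from 54.7, 53.4 and 27.6 CPM to 90.1, 168 and 130 CPM (1.41, SE 0.31, adjusted p = 0.0143), a call lost without d17 replicate 3 (adjusted p = 0.0581). The member that fell was Plvap, at 8.28, 11.6 and 8.12 CPM and then at 5.95, 3.5 and 4.61 CPM (-1.05, SE 0.32, adjusted p = 0.0444). No member fell on leaving out any 1 library but d17 replicate 1, with at least 10 reads in every library or in 1 model of the 9 C57BL/6J libraries, and 5 fell with the GC and length trend removed. The endothelial junction genes Pecam1, at 22.2, 27.3 and 21.8 CPM and then at 25.1, 10.9 and 14.5 CPM (-0.54, SE 0.35, adjusted p = 0.293), and Cdh5, at 17.8, 54 and 22.8 CPM and then at 35.2, 5.45 and 12 CPM (-0.87, SE 0.71, adjusted p = 0.401), were not called and overlapped between the days. Plvap, Pecam1 and Cdh5 were named after their values were seen.

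Of 24 genes of microglia and macrophages 3 rose and 2 fell, beside the same shares of all genes (median log2 fold change 0.08, or -0.076 without d17 replicate 3), and none rose on leaving out d12 replicate 2 or 3 or d17 replicate 3. The receptor gene Cx3cr1 was at 8.38, 10.8 and 11.2 CPM on d12 and at 11.2, 7.88 and 12.6 CPM on d17, with overlapping values. P2ry12, a receptor of homeostatic microglia, was at 3.12, 2.94 and 2.92 CPM and then at 4.2, 7.24 and 7.28 CPM (0.97, SE 0.26, adjusted p = 0.0299), and its call was lost on leaving out any library but d17 replicate 1 (adjusted p 0.0704 to 0.132). With the GC and length trend removed the change of P2ry12 was 0.45 (adjusted p = 0.182). Sall1, a microglial factor that neural progenitors also express and the most abundant member, fell from 92, 109 and 65.1 CPM to 34.7, 21.8 and 22.2 CPM (-1.82, SE 0.31, adjusted p = 0.00573).

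Among splicing and RNA-binding regulators 22 of 54 genes fell and 1 rose, beside 11.7% and 14.5% of all genes tested, with a median log2 fold change of -0.60. This count of falling genes was 12, 13 and 12 without d12 replicates 1, 2 and 3 and 3 without d17 replicate 3. Hnrnpa2b1, an abundant nuclear ribonucleoprotein, was at 2140, 1980 and 2490 CPM on d12 and at 1130, 1350 and 1250 CPM on d17 (-0.90, SE 0.20, adjusted p = 0.0141), a call lost without d17 replicate 3 (adjusted p = 0.0772). Mbnl3, the muscleblind member of undifferentiated cells, was at 7.21, 5.71 and 10.6 CPM and then at 0.582, 2.56 and 0.935 CPM (-2.63, SE 0.50, adjusted p = 0.00848). The member that rose was Rbfox1, a regulator of neuronal exons, at 45.5, 68.6 and 20.7 CPM and then at 161, 105 and 133 CPM (1.49, SE 0.44, adjusted p = 0.0389), and its call was lost without d12 replicates 1 or 3 or d17 replicates 1 or 3 (adjusted p 0.0549 to 0.108). In the cholesterol synthesis list 1 of 24 genes rose, 1 fell and the median was -0.05, which changed sign with upper quartile scaling (0.056), with library sizes alone (0.014), with at least 10 reads in every library (0.035) and without d17 replicate 2 (0.062). Hmgcs1, its most abundant enzyme, was at 323, 354 and 477 CPM and then at 555, 332 and 526 CPM.

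Genes of tissues next to the brain were measured beside these. In the choroid plexus list 5 of 18 genes rose and 1 fell, beside 14.5% and 11.7% of all genes tested (median log2 fold change 0.68). Its members Tmem72 rose from 0.945, 1.2 and 0.197 CPM to 5.92, 13.7 and 9.55 CPM (3.51, SE 0.59, adjusted p = 0.00528) and Prlr from 0.976, 1.2 and 0.655 CPM to 5.24, 13 and 8.38 CPM (3.11, SE 0.39, adjusted p = 0.00179). Ttr, transthyretin, was at 238, 228 and 81.3 CPM and then at 566, 532 and 547 CPM (1.51, SE 0.40, adjusted p = 0.0277), a call lost without d17 replicates 2 or 3 (adjusted p = 0.0509 and 0.0873). The plexus genes were thus present on both days. Of 21 connective tissue, cartilage and meningeal genes 7 fell and none rose (median -0.43, or 0.31 without d12 replicate 3), a count of 11, 3 and 2 on leaving out d17 replicates 1, 2 and 3 in turn. The cartilage collagen Col2a1 fell from 169, 207 and 270 CPM to 33.6, 30.6 and 22.9 CPM (-2.95, SE 0.26, adjusted p = 0.000755). Col1a1 was at 65.8, 167 and 230 CPM on d12, 2510, 74.8 and 141 CPM on d15 and 514, 9.23 and 27.5 CPM on d17, with no call (0.30, SE 1.25, adjusted p = 0.881), and fell without d17 replicate 1 (-3.19, adjusted p = 0.0142). The summed level of the connective list was 688, 1220 and 1700 CPM on d12, 5840, 604 and 825 CPM on d15 and 1380, 304 and 369 CPM on d17.

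The remaining lists held few tested genes or low levels, and their counts stand beside 14.5% rising and 11.7% falling of all genes tested. Of 16 tested skeletal muscle genes 3 rose and 1 fell, with summed levels of 23.3 to 26.8 CPM on d12 and 34.2 to 52 CPM on d17, and 1 rose on leaving out d12 replicate 3 or d17 replicate 2 or 3, and 3 fell on leaving out d12 replicate 1. Of 6 tested pituitary genes none was called, the sums did not exceed 8.94 CPM, and the pituitary hormone gene Cga had no read in any of the 6 libraries. Of 14 tested genes of epidermis and eye 2 rose and 3 fell, with sums of 32.7 to 65.4 CPM on d12 and 29.7 to 29.9 CPM on d17, and 1 fell on leaving out d12 replicate 3 or d17 replicate 2 or 3, and 5 on leaving out d12 replicate 2. Of 6 tested genes of trophoblast, decidua and yolk sac 4 rose, or 2 without d17 replicate 3. The 4 were Amn, Cryab, Rbp4 and Ttr, and other lists above also hold Cryab and Ttr. The 14 members not tested reached 36.5 CPM, the level of Tpbpa in d12 replicate 3. The median log2 fold change was 1.76, or -1.862 without a filter on low counts and -1.01 in 1 model of all 27 libraries. The count of 4 thus does not describe the list as a whole. The part of these tissues in the changes above was not tested.

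The d15 libraries placed these changes in time. Of the 2865 genes that rose, 1476 (51.5%) had all d15 libraries between those of d12 and d17, and of the 2305 that fell, 1085 (47.1%) did. The early phase had 1356 genes rising (7.08%) and 1494 falling (7.80%) of 19154 tested, and the late phase 1484 (7.46%) and 1110 (5.58%) of 19888, and each phase shares 3 libraries with the net change. These counts rest on single libraries. The 2850 genes of the early phase became 6, 0 and 2 without d15 replicates 1, 2 and 3 (5212, 4920 and 4583 at an unadjusted p under 0.05), 330 without d12 replicate 1 and 5958 without d12 replicate 2. The 2594 genes of the late phase became 363, 267 and 781 without d15 replicates 1, 2 and 3, 160 without d17 replicate 3 and 6990 without d17 replicate 1. By list, the median log2 fold change of the mitosis genes was -1.16 over the early and -1.35 over the late phase, and that of the replication genes -0.90 and -0.75. Progenitor genes had -0.43 and -1.10, GABA and glycine receptors 1.22 and 0.73, voltage-gated channels 0.90 and 0.24, and the neuronal cytoskeleton 0.79 and -0.10. The medians of the progenitor list were thus larger in size over the late phase and those of the channel and receptor lists over the early phase, also with any 1 library left out, when progenitors had -0.51 to -0.34 early and -1.33 to -0.91 late, channels 0.74 to 1.12 and 0.13 to 0.30, and receptors 0.95 to 1.35 and 0.67 to 0.86. These medians are totals over phases of unequal length, as d12 to d15 is longer than d15 to d17, and changes per day were not compared. The fits of both phases also share the d15 libraries. The late median of the cytoskeleton list was 0.09 without d17 replicate 2.

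Some genes that the net change misses had their peak in between. The d15 libraries lay above all 6 libraries of d12 and d17 for 404 of 19762 genes (2.04%) and below all 6 for 672 (3.40%). Of the 14592 genes not called, 399 (2.73%) were above and 659 (4.52%) below. In the cortical projection neuron list this was so for 8 of 26 genes, all above and not called, among them Bcl11b, Tbr1, Fezf2, Neurod1, Neurod2, Sox5 and Zfpm2. Tbr1, a factor of deep-layer neurons, had 122, 142 and 37.7 CPM on d12, 219, 225 and 198 CPM on d15 and 160, 39.2 and 68.6 CPM on d17 (net log2 fold change -0.21, SE 0.64, adjusted p = 0.836). Bcl11b, which specifies subcerebral neurons, had 189, 194 and 52.1 CPM, then 341, 372 and 339 CPM and then 281, 62.7 and 138 CPM (0.11, SE 0.65, adjusted p = 0.915). Their d12 and d17 values overlapped, and the lowest were in d12 replicate 3 and d17 replicate 2. The astrocyte list held 3 such genes, the nuclear factor genes Nfia, Nfib and Nfix. Many lists held none, among them those of mitosis, DNA replication, channels, GABAergic neurons and the synaptic vesicle. At a share of 2.04% over all genes, 0 in lists of this size is no contrast to the others. The genes with a d15 peak were chosen after their values were seen.

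The net change was set against that of the other strains, which share no library with it. With the same test AKR/J had 9165 DE genes of 20030 (45.8%), with 4619 higher (23.1%) and 4546 lower (22.7%), and Cav1-null fetuses 8888 of 20189 (44%), with 4190 higher (20.8%) and 4698 lower (23.3%). The typical spread between replicates, as edgeR's biological coefficient of variation, was 29.6% in C57BL/6J, 28.2% in AKR/J and 21.6% in Cav1-null fetuses. Of the DE genes of C57BL/6J, 4959 were tested in AKR/J, where 4663 had the same sign, 3637 were called the same way and 15 the opposite way. Of 5075 tested in Cav1-null fetuses, 5005 had the same sign, 4394 were called the same way and 1 the opposite way. Over 18666 genes tested in all 3 strains, the log2 fold changes of C57BL/6J correlated at r = 0.739 with those of AKR/J and 0.877 with those of Cav1-null fetuses, as a description over genes, which are not independent. Mitosis genes fell in all 3 strains (46 of 46 in each), while the median of the GABA and glycine receptors was 2.07 in C57BL/6J, 2.66 in AKR/J and 1.56 in Cav1-null fetuses, and no difference of these list values was tested.

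The difference of the net changes was tested gene by gene with an interaction term over 12 libraries. Against AKR/J 2 of 21808 genes differed (0.00917%), with 4797 at an unadjusted p under 0.05 (22%), and against Cav1-null fetuses 1 of 21675 (0.00461%), with 864 at an unadjusted p under 0.05 (3.99%). The 2 genes were Rpl34-ps1 and Nr1h5, and the 1 gene was Rpl34-ps1. Against AKR/J the count depended on the fit, with 1934 genes by DESeq2, 1831 by the likelihood ratio test of edgeR, 41 with library sizes alone, 3951 without AKR/J d12 replicate 2, 1363 without C57BL/6J d12 replicate 3, 11 without C57BL/6J d12 replicate 1 and 5 without C57BL/6J d17 replicate 1. Summed erythroid levels were 69200, 35900 and 137000 CPM in AKR/J against 1960, 1810 and 4930 CPM in C57BL/6J on d12, and the sums of the trophoblast, decidua and yolk sac list were 1780, 357 and 76.3 CPM against 265, 264 and 192 CPM. Their part in the difference between the strains was not tested. Cav1, deleted in the Cav1-null line, was at 14.2, 17.2 and 10.7 CPM on d12 and at 31.9, 36.8 and 43 CPM on d17 in C57BL/6J (log2 fold change 1.32, SE 0.23, adjusted p = 0.00628), and rose by 1.36 in AKR/J.

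**Figure D5:**
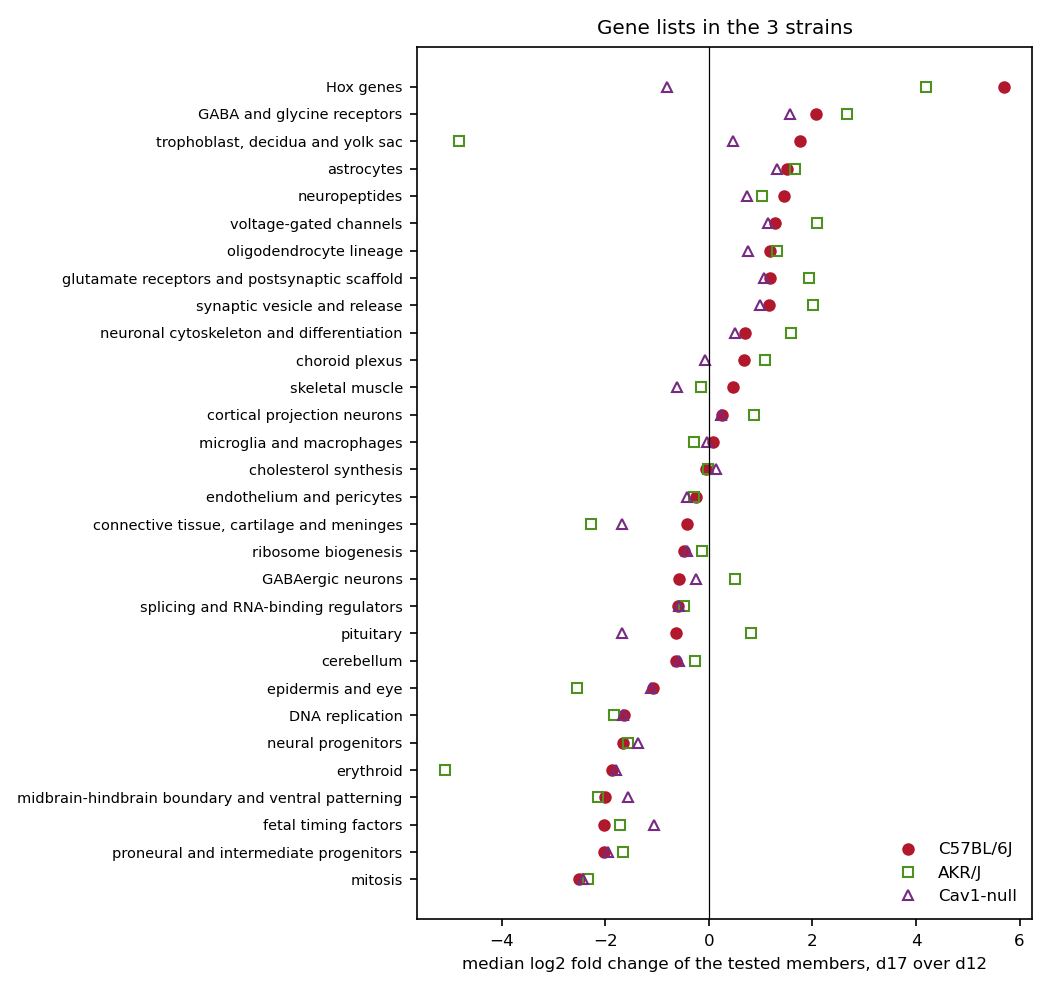
Median log2 fold change of d17 over d12 of the tested members of each gene list (horizontal axis) in C57BL/6J (filled circles), AKR/J (open squares) and Cav1-null fetuses (open triangles). The 3 symbols of the mitosis list lie together at -2.51, -2.33 and -2.44, and those of the erythroid list lie at -1.87, -5.09 and -1.80.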

How the data were processed

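Strain and day were taken from the labels. The deposited table holds unnormalized read counts, whole numbers listed by Ensembl gene. According to the submitters' notes and the methods, the authors used FastQC, cutadapt and fastp on the reads and STAR with GRCm39 for mapping, and the counting tool, its handling of strand and of reads with several matches, and the versions are not given in the sources used here. Without strand, reads of overlapping genes cannot be told apart. A deposited table of splice junctions was not used here.

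The 6 libraries of d12 and d17 were fitted in R 4.3.3 with edgeR 4.0.16, after filterByExpr and TMM scaling, with the quasi-likelihood test and Benjamini-Hochberg adjustment over all genes tested. The standard error (SE) was obtained by dividing the size of the log2 fold change by the square root of F. Interactions with strain were fitted on 12 libraries. Printed CPM are counts per 1000000 reads on genes without TMM scaling, which enters the fits and the average log2 CPM (factors 0.937 to 1.105), levels per kb use the exon length of GENCODE M39, and counting intervals are exact at 95%. Tables and plots were made in Python 3.11.15 with numpy 2.4.6, pandas 2.3.3, scipy 1.17.1 and matplotlib 3.10.9. The net change and the interaction with AKR/J were also run on simulated counts, as a check of the code only. Those counts had a smaller spread between replicates than the C57BL/6J libraries. Only genes with many reads were changed in them, and no library stood apart. The labels number the replicates of both days, but same-numbered libraries did not deviate together (r -0.142, -0.498 and -0.00355), so the fit has no replicate block.

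The comparison and the 30 gene lists were chosen with earlier results of these data known. Genes are named by rule: the 10 largest rises and falls without overlap and at an average log2 CPM of 3 or more, in each list the 3 called members with the largest change and the most abundant member, the genes of the pairs, and checks of the labels; some at low levels are given only in counts, and a few are not reported here. Tpbpa, En1, En2, Tubb3, Lin28b, Mbp, Cx3cr1, Tbr1, Bcl11b and the genes with a d15 peak were named after their values were seen.

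As alternatives, the Wald test of DESeq2 1.42.0 and the likelihood ratio test of edgeR were run, with RLE, upper quartile and library size scaling, no filter, at least 10 reads in every library, all 27 or all 9 C57BL/6J libraries in 1 model, a block for the replicate number and the removal of single libraries. Leaving out d12 replicate 3 and d17 replicate 2 together, correcting for GC content and length, leaving out erythroid genes, and leaving out each library of the phases were chosen after seeing the data. Depth was 29700746 to 35026178 reads on genes.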

Additional observations from a re-analysis of the deposited data

Results flagged for a closer look

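The net change differed between strains for 2 genes by the interaction test. Rpl34-ps1, a processed pseudogene of a ribosomal protein gene, rose in C57BL/6J from 0.283, 0.143 and 0.262 CPM on d12 to 4.27, 11.4 and 5.84 CPM on d17, while in AKR/J it was at 182, 60.5 and 149 CPM on d12 and at 17.1, 32.4 and 33.3 CPM on d17. The difference of the log2 fold changes was 7.72 (SE 0.83, adjusted p = 0.00799, edgeR quasi-likelihood test with Benjamini-Hochberg adjustment). Against Cav1-null fetuses, at 0.714, 0.607 and 0.325 CPM and then at 0.417, 0.222 and 0.379 CPM, it was 5.56 (SE 0.66, adjusted p = 0.0405). This call was lost, with 0 genes differing, on leaving out 8 of the 12 libraries in turn. The same was so with upper quartile scaling, with at least 10 reads in every library, with the replicate block and in the model of 27 libraries. Without C57BL/6J d12 replicate 2 the 1 gene called differed in the other direction, so that the call of Rpl34-ps1 was lost there too. Reads of this pseudogene can be shared with its parent gene, so its values are uncertain.

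Nr1h5, a nuclear receptor gene, was at 36.9, 71.4 and 26.5 CPM on d12 and at 1.45, 1.06 and 2.18 CPM on d17 in AKR/J. In C57BL/6J it was at 0.063, 0 and 0.229 CPM and then at 0.162, 1.18 and 0.701 CPM, and the difference of the log2 fold changes was 7.95 (SE 0.92, adjusted p = 0.0100). Nr1h5 had too few reads to be tested in C57BL/6J alone, and passed the filter of the 12 libraries through those of AKR/J. Its difference and adjusted p are thus given as a description only. In Cav1-null fetuses it was at 0.214, 0.152 and 0.148 CPM and then at 0.591, 0.628 and 0.413 CPM. The AKR/J libraries of d12 also held Afp, a yolk sac gene, at 707, 144 and 10.9 CPM, and the part of such tissue in this difference was not tested.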

How the results depend on the processing

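For the 5170 DE genes, 2865 higher and 2305 lower, leaving out 1 library gave 2214 to 5231 genes, 1362 to 2583 higher and 852 to 2648 lower. In 1 model of all 27 libraries 8806 genes were DE with 4542 lower, in 1 model of the 9 C57BL/6J libraries 3466 were lower, and with the GC and length trend removed 4486 were lower. DESeq2 gave 6475, the likelihood ratio test 6261, RLE 5133, upper quartile scaling 5208, library sizes 5265, no filter 5149 and at least 10 reads 4297 DE genes. With the replicate number as a block 2651 genes were DE (1625 higher and 1026 lower), 4 genes differed from AKR/J and 0 from Cav1-null fetuses (681 at an unadjusted p under 0.05), and Col1a1 was -2.19. Same-numbered libraries did not deviate together, so the numbers do not pair the samples.

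The difference from AKR/J, 2 genes, was 1934 with DESeq2, 1831 with the likelihood ratio test, 41 with library sizes alone, 1717 without a filter, 0 with at least 10 reads (3766 at an unadjusted p under 0.05), 4453 in the model of 27 libraries and 1 to 3951 without 1 library. The difference from Cav1-null fetuses, 1 gene, was 16 with DESeq2 and 28 with the likelihood ratio test. It was 0 with upper quartile scaling (852 at an unadjusted p under 0.05), with at least 10 reads (424) and with 27 libraries (1037), and 0 to 7 without 1 library. The causes were not tested.

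Of the alternative values of named genes 2462 kept direction and side of the threshold, 138 lost and 42 gained a call and 29 changed sign, most of them near 0. With the GC and length trend removed Elavl2 was -0.271, Tubb2b -0.029, Col1a1 -0.0618 and Tet1 -0.157. With upper quartile scaling Dpf3 was 0.038, Dnmt3a 0.0065 and Xist 0.107, with library sizes alone Dpf3 was 5e-04 and Xist 0.0554, and with at least 10 reads Dpf3 was 0.0071 and Xist 0.0613. Without both d12 replicate 3 and d17 replicate 2 Dnmt3a was 0.027. Without 1 library the values ran from -0.148 to 0.318 for Tubb2b, -0.520 to 0.0592 for Syt11, -1.24 to 0.0169 for Lhx4, -3.19 to 0.856 for Col1a1, -0.0494 to 0.310 for Dpf1, -0.255 to 0.280 for Dpf3, -0.423 to 0.135 for Dnmt3a and -0.414 to 0.149 for Xist. With 3 libraries a group, genes under about 1 CPM rest on few reads.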

Other observations

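Among the d15 libraries, which enter the 2 phases and the models of 9 and 27 libraries but not the net change, replicate 1 stood apart in connective tissue and muscle genes and replicate 3 in Hox genes. The connective tissue list summed to 5840, 604 and 825 CPM, with Col1a1 at 2510, 74.8 and 141 CPM and Acan at 26.6, 0.529 and 0.807 CPM. The skeletal muscle list summed to 114, 31.3 and 31.1 CPM, with Myh3 at 17.6, 1.16 and 0.968 CPM and Acta1 at 13.9, 1.38 and 1.56 CPM. Hox genes summed to 1.63, 0.741 and 231 CPM, with Hoxa5 at 0, 0 and 44.5 CPM.

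In the promoters of the synapse lists, taken as above, the cAMP response element TGACGTCA was in 2 of 140 (1.43%), against 1.79% of all promoters and 2.71% of those of tested genes. These promoters are those of all members of the lists, whether called or not.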
